A study of Homo sapiens with 4 samples.

Results

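The arginine tRNAs were examined here through the 5 references whose names begin with Arg: Arg-ACG-1-2, Arg-CCG-2-1, Arg-CCT-1-1, Arg-TCG-1-1 and Arg-TCT-1-1. They are 5 of the 48 tRNA references in the series, 1 for each arginine anticodon, and they hold 380 of the 3621 nucleotides that carry a canonical tRNA number, 76 in each reference. Membership was decided by name, not by any measured value, though the group was chosen with earlier results of these data known. The RefSeq table of assembly GRCh38.p14 lists all 5 under 1 gene each, as TRR-ACG1-2, TRR-CCG2-1, TRR-CCT1-1, TRR-TCG1-1 and TRR-TCT1-1. No genome coordinates are given, because the sources used here name no genome build. The rate sheets hold no bases, so only the anticodon letters, which the names carry, were used as sequence. The Arg references have a position 20a and no position 17.

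The samples were purified tRNA from HCT116, an established colorectal carcinoma cell line of human origin, either unmodified (WT) or lacking TRMT1L (TRMT1L KO), with 2 libraries of each genotype. Both genotypes were grown in high glucose medium with fetal bovine serum and antibiotics and the labels name no treatment and do not say how many knockout clones were used or how the gene was disrupted. The tRNA was sequenced by Nano-tRNAseq, which passes the native RNA, ligated to adaptors, through a nanopore, and the series asked which tRNA modifications depend on TRMT1L, a relative of the tRNA guanosine methyltransferase TRMT1. The values are base-calling error rates, the percentage of reads at a nucleotide in which the base caller gave another base (mismatch), skipped the base (deletion) or added one (insertion), and their sum is called the summed error.

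Arginine is read by tRNAs that fall into 2 codon families: those with anticodons ACG, CCG and TCG read the CGN codons, and those with CCT and TCT read AGA and AGG. The first anticodon base, position 34, pairs with the third codon base and is often modified: the adenosine of the ACG tRNA is deaminated to inosine by ADAT2 and ADAT3, and the uridine of the TCG and TCT tRNAs can carry side chains built by the Elongator complex and ALKBH8. Position 37, just 3' of the anticodon, carries bulky or methylated purines that stabilise codon pairing. Other known sites are position 9, methylated by TRMT10A in some tRNAs, the D loop with its dihydrouridines, position 26, dimethylated by TRMT1, position 32, where a methylated cytidine is found in the tRNAs that read AGA and AGG, position 54, methylated by TRMT2A, and position 58, methylated by TRMT6 and TRMT61A. A modified base can alter the nanopore current, and the current depends on neighbouring bases too, so an error rate names neither the modification nor its amount and can move in either direction when a modification is lost.

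The profiles were alike between libraries and distinct between references. Over its 76 positions each reference correlated with itself between the WT libraries at Pearson's r of 0.990 to 0.996 and between the KO libraries at 0.974 to 0.996. Between different Arg references, WT mean profiles correlated at 0.49 for TCG with TCT up to 0.77 for ACG with TCG. These correlations describe positions within the same libraries and are given without a test. Over all Arg positions the mean summed error was 31.7% and 31.96% for WT replicates 1 and 2, and 33.5% and 32.9% for those of KO. The 4 means lay close together, with both KO libraries above both WT libraries. The median SD between libraries of a genotype was 1.17 percentage points in WT and 1.18 in KO.

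**Figure D1:**
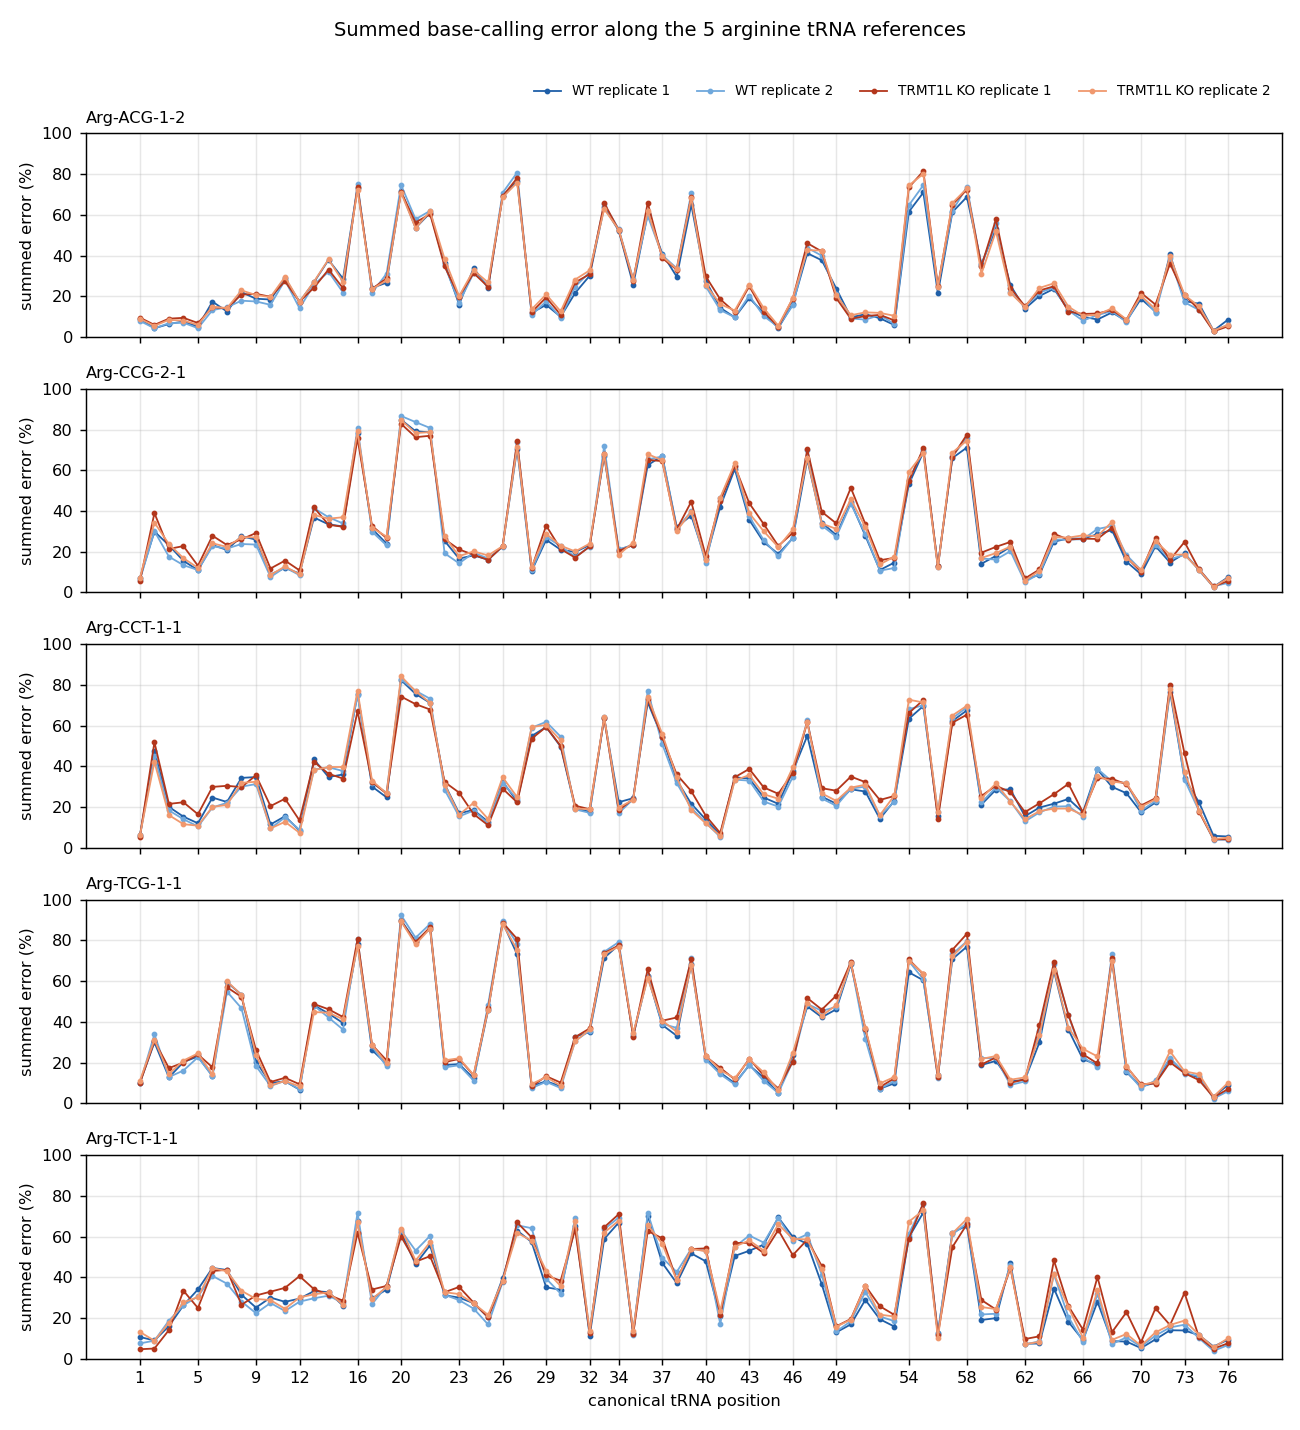
Summed base-calling error (%) at each canonical tRNA position, with 1 panel for each Arg reference and 1 line for each library (blue, WT; red and orange, TRMT1L KO). The peaks at position 16, around position 20, at 54 and 55 and at 58 recur in all 5 panels, while the height at position 26 runs from 22.5% in CCG to 89.2% in TCG in WT.

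Position 20 in the D loop was the highest position of TCG, CCG and CCT, while the highest was 27 in ACG and 55 in TCT. At position 20 the WT summed error was 91.2% ± 1.75 (SD, n = 2 here and for all means below) in TCG, 85.7% ± 1.29 in CCG, 82.6% ± 0.24 in CCT, 73.2% ± 2.08 in ACG and 62.6% ± 0.61 in TCT. Each step in this order exceeded the SD of both neighbours. Such comparisons with the SD, here and below, are descriptions without a test, since all references were read in the same libraries. Among all 48 references these values ranked 1, 2, 3, 5 and 8, and the median of the 43 references of other amino acids was 40.03%. Mismatch was the larger kind of error in all 5, and in ACG deletions reached 31.5% of reads, the highest deletion rate at position 20 of any reference. The next nucleotide, 20a, ranged from 49.8% ± 4.73 in TCT to 81.4% ± 3.19 in CCG.

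Position 16, also in the D loop, was among the 5 highest positions of every Arg reference, and was chosen for that. Its WT summed error was 79.6% ± 1.78 in CCG, 79.3% ± 1.70 in TCG, 75.4% ± 0.43 in CCT, 74.3% ± 1.41 in ACG and 69.7% ± 2.82 in TCT. CCG and TCG did not differ beyond their SD, and neither did CCT and ACG. These are the 5 highest values at position 16 among 48 references, the highest of the others being 67.5% and their median 31.8%. Mismatch made up 57.3% to 70.5% of reads and deletion 3.95% to 9.88%. Since the position was chosen by its values, these ranks are a description with no test.

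Position 26, the site of the TRMT1 dimethylguanosine in many tRNAs, split the family widely. WT summed error was 89.2% ± 0.48 in TCG and 70.04% ± 1.07 in ACG, against 38.7% ± 1.3 in TCT, 32.2% ± 0.52 in CCT and 22.5% ± 0.22 in CCG. Every step in this order exceeded the SD of both neighbours. The kind of error also differed between the high pair: in TCG mismatch was 64.6% and deletion 23.8%, whereas in ACG mismatch was 28.5% and deletion 39.5%. The other references had a median of 60.9% here and ran from 9.17% to 95.6%, so both ends of the arginine range lay inside theirs. At position 27 the order changed, with 78.7% ± 2.96 in ACG, 75.7% ± 3.69 in TCG, 72.2% ± 2.37 in CCG, 64.3% ± 1.85 in TCT and 23.5% ± 0.82 in CCT. The 2 highest did not differ from their neighbours beyond the SD, and CCT stood far below the rest.

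In the anticodon loop the error at position 34 followed the anticodon letter. The pair with T first had 78.5% ± 0.99 (TCG) and 68.1% ± 1.77 (TCT), ACG had 52.7% ± 0.56, and the pair with C first had 21% ± 0.18 (CCG) and 19.8% ± 3.79 (CCT), which did not differ beyond their SD. Outside arginine, 12 references with T at 34 had a median of 55.6% (21.5% to 79.2%), 8 with A a median of 53.6% (41.9% to 69.1%) and 14 with C a median of 24.1% (5.57% to 57.2%). ACG and the C pair thus lay near the medians of references with the same letter, and the T pair above theirs but inside their range. Mismatch was the larger kind of error in all 5, at 68.9% in TCG, 51.1% in TCT, 30.0% in ACG, 13.98% in CCG and 11.7% in CCT.

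The rest of the loop was ordered differently. Position 35, C in every arginine anticodon, was lowest in TCT (12.3% ± 0.60) and highest in TCG (33.5% ± 0.54). Position 36, which separates the codon families, read 74.3% ± 3.96 in CCT and 70.9% ± 0.93 in TCT with T, and 63.9% ± 2.01 in CCG, 62.5% ± 0.06 in TCG and 60.1% ± 0.74 in ACG with G. The pair that reads AGA and AGG lay above the 3 others, CCT and TCT did not differ beyond their SD, and neither did CCG and TCG. At position 37 CCG was highest with 66.9% ± 0.23, followed by 52.7% ± 2.36 in CCT, 48.4% ± 1.80 in TCT, 40.6% ± 0.58 in ACG and 38.8% ± 0.39 in TCG. Here the codon families were interleaved.

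Position 32 ranged from below to above the median of other tRNAs. WT summed error was 35.4% ± 0.55 in TCG, 30.97% ± 1.23 in ACG, 22.9% ± 0.64 in CCG, 17.4% ± 0.29 in CCT and 12.1% ± 1.16 in TCT. CCT and TCT, the family members in which a methylated cytidine is known at 32, were the lowest. Outside arginine the same position reached 87.4%, with a median of 20.5%. Position 9 ran from 18.1% ± 0.96 in ACG to 33.1% ± 2.43 in CCT, beside a median of 27.3% elsewhere.

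**Figure D2:**
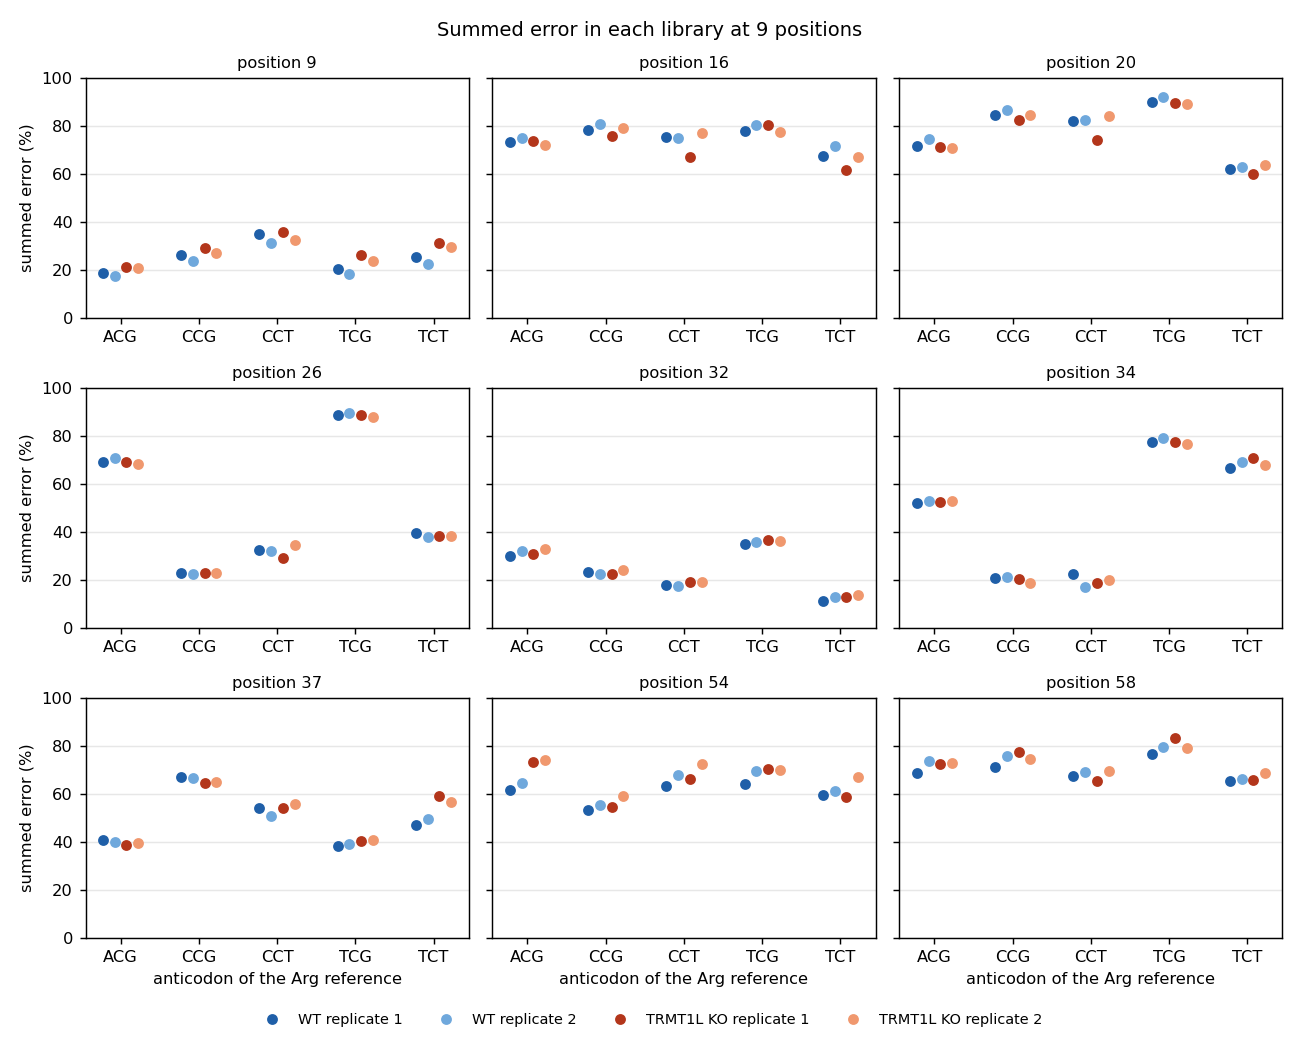
Summed error (%) in each of the 4 libraries at 9 positions, by anticodon of the Arg reference. Libraries of a reference cluster tightly at most positions, references spread most at 26 and 34, and at position 54 of ACG both KO libraries (73.5% and 74.4%) lie above both WT libraries (61.5% and 64.7%).

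The T loop positions 54 and 58 were high in all 5 references. Summed error lay above the median of other tRNAs at 54 and on both sides of it at 58. At position 54, known for ribothymidine, WT values were 67.1% ± 3.87 in TCG, 65.8% ± 3.33 in CCT, 63.1% ± 2.27 in ACG, 60.5% ± 1.20 in TCT and 54.3% ± 1.55 in CCG, and neither TCG and CCT nor CCT and ACG differed beyond their SD. At position 58, known for 1-methyladenosine, they were 78.3% ± 1.85 in TCG, 73.5% ± 3.37 in CCG, 71.3% ± 3.56 in ACG, 68.3% ± 1.06 in CCT and 65.95% ± 0.82 in TCT, where CCG did not differ from ACG, nor ACG from CCT, beyond their SD. The other references had medians of 51.1% at 54 and 70.8% at 58.

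Within the family, ACG had the most deletion-rich T loop in WT. Deletions made up 73.03% of its summed error at 54 and 63.4% at 58, against 30.4% to 55.2% at 54 and 14.4% to 22.2% at 58 in the 4 other Arg references. Its deletion rate at 58, 45.2% of reads, was the highest of the 48 references. At 55, the pseudouridine site, ACG had 34.97% deletions against 4.45% to 9.79% in its relatives, and ranked 2 of 48. ACG also ranked 2 of 48 for deletions at 54, with 46.1%. Where identical bases adjoin, the one skipped cannot be told from its neighbours, and the bases around these positions were not used here. Reads of closely similar references may also be shared.

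The 5 highest WT positions of each reference lay mostly in the D loop, the T loop and the anticodon arm. For ACG they were 27, 16, 20, 55 and 58, for CCG 20, 20a, 21, 16 and 58, and for TCG 20, 26, 21, 20a and 16. CCT had 72 of the acceptor stem (78.1% ± 1.92) and 36 beside 20, 20a and 16. TCT had none of 20, 20a or 21 among its highest, which were 55 (74.01% ± 3.03), 36, 16, 45 of the variable region (69.3% ± 0.13) and 34. Position 16 was common to all 5 lists.

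**Figure D3:**
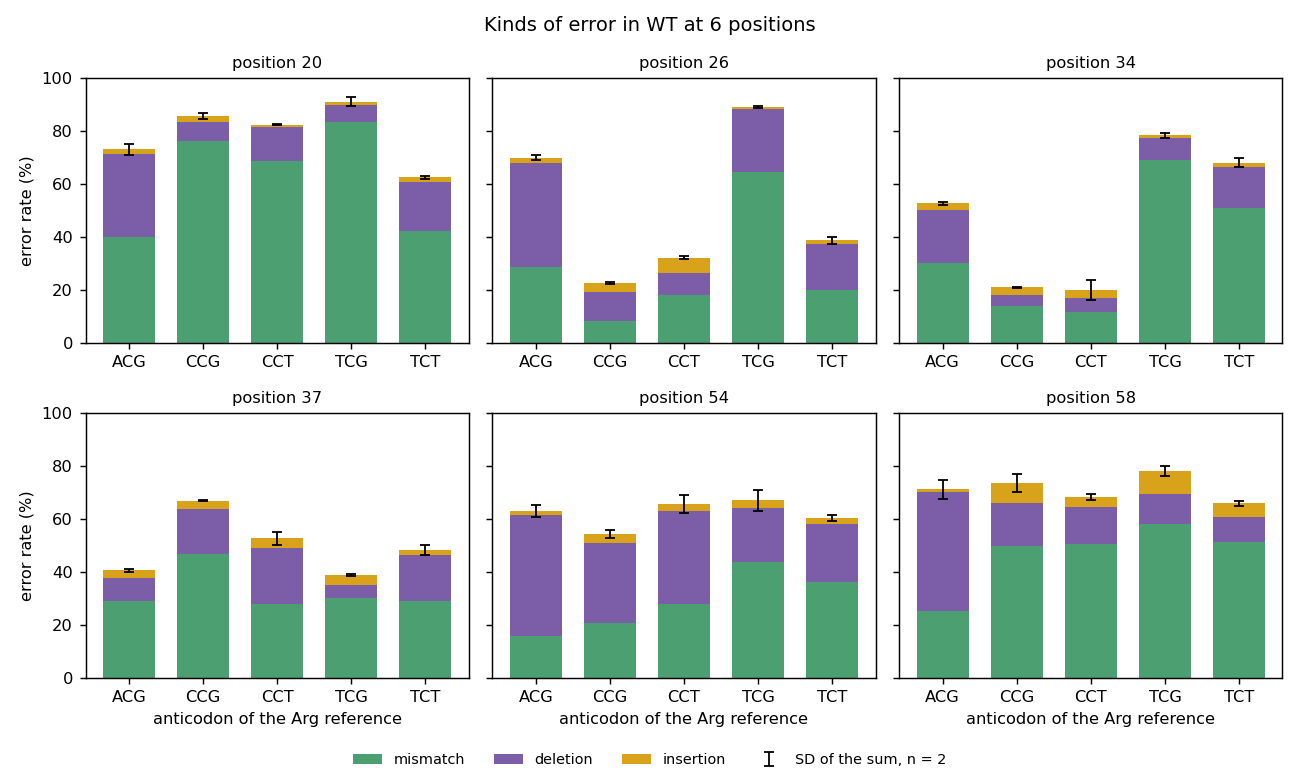
Mismatch, deletion and insertion rates (%), stacked, as WT means of 2 libraries at 6 positions by anticodon of the Arg reference; the bar at the top is the SD of the summed error. Deletion (purple) exceeds mismatch (green) in ACG at 26, 54 and 58, in CCG at 26 and 54 and in CCT at 54. In TCG and TCT mismatch is the larger kind at all 6 positions.

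The references outside arginine with the most similar WT summed-error profiles were Leu-AAG-2-3 for ACG (Pearson's r = 0.70 over 74 shared positions) and for TCG (0.56 over 74), Lys-TTT-3-3 for CCG (0.67 over 75), Ile-TAT-3-1 for CCT (0.53 over 76) and Ser-AGA-2-5 for TCT (0.75 over 74). After these came Leu-TAA-1-1 and Ser-TGA-1-1 for ACG, Tyr-GTA-2-1 and Lys-CTT-3-1 for CCG, Ser-TGA-1-1 and Ser-CGA-2-1 for CCT, Ser-TGA-1-1 and Trp-CCA-4-1 for TCG, and Ile-TAT-3-1 and Ser-TGA-1-1 for TCT. The median over the 43 references ran from 0.35 for CCT to 0.50 for TCT. TCT correlated more with its 3 outside references than with any Arg reference (at most 0.65), while each of the 4 others had an Arg reference at 0.76 or 0.77, above every outside one. The points share libraries and the common layout of tRNAs, and no test was made.

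The comparison of the knockout with WT asked which of these positions depend on TRMT1L. As a check of the labels, deletions at position 27 of Tyr-GTA-2-1 fell from 31.3% and 32.7% in WT to 3.43% and 3.99% in KO (limma adjusted p = 3.62e-12), so the genotypes were distinct outside arginine. The test was limma on all 3621 positions with Benjamini-Hochberg adjustment, and a position passed at an adjusted p below 0.05. With 2 libraries against 2, an exact permutation test of a single position cannot go below 0.333. Changes are KO minus WT in percentage points.

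Few arginine positions passed. For summed error 1 of 380 did (position 54 of ACG, higher in KO), beside 0.608% of all positions. For deletion 2 did (position 55 of ACG and position 71 of TCT, both higher), beside 1.19%. By limma no Arg position passed for mismatch or insertion, beside 0.552% and 0.0829% of all positions. An unadjusted p below 0.05 was found at 48 Arg positions (12.6%) for summed error, 29 (7.63%) for mismatch, 54 (14.2%) for deletion and 15 (3.95%) for insertion, beside 9.36%, 6.99%, 11.4% and 5.69% of all positions. The counts of calls are near the background and do not mark arginine as a group. Among the 40 combinations of 8 named modification sites and 5 references, 1 passed for summed error. None did by limma for mismatch, deletion or insertion. An unadjusted limma p below 0.05 was found at 4 of the 40 for summed error, 3 for mismatch, 2 for deletion and 1 for insertion. Over all positions those shares were 9.36%, 6.99%, 11.4% and 5.69%.

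The 2 calls of ACG lay in the T loop. At position 54 its summed error was 61.5% and 64.7% in WT and 73.5% and 74.4% in KO. Both KO libraries lay above both WT libraries, and the mean rose by 10.8 points, from 63.1% ± 2.27 to 73.95% ± 0.67 (limma adjusted p = 0.0442). This call was lost with the libraries centred on their medians (9.55 points, limma adjusted p = 0.177) and without KO replicate 2 (10.3 points, limma adjusted p = 0.0601), the libraries left out one at a time otherwise keeping it. Most of the difference was deletion, 44.8% and 47.4% in WT against 55.8% and 53.2% in KO, which alone did not pass (8.43 points, limma adjusted p = 0.111). Mismatch at 54 differed by 2.87 points (limma adjusted p = 0.771).

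At position 55 of ACG, deletions were 33.4% and 36.5% in WT and 45.99% and 43.9% in KO. The groups did not overlap, and the mean rose by 9.98 points (limma adjusted p = 0.0297), a call that was lost on the log odds scale, with centred libraries and without WT replicate 1, KO replicate 1 or KO replicate 2 (limma adjusted p = 0.0568, 0.0762, 0.150, 0.396 and 0.103). Mismatch there was 36.1% and 37.4% in WT against 34.6% and 35.5% in KO, and the 8.00-point difference in summed error, with limma adjusted p = 0.155, was no call. Deletions at position 57 were 34.6% and 35.9% against 41.2% and 39.4%, again without overlap and without passing (limma adjusted p = 0.394). At position 58 the groups overlapped, with 43.1% and 47.4% in WT and 48.04% and 44.2% in KO.

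The same T loop positions were higher on average in the other 4 references, by smaller amounts. Over all positions the KO mean was higher at 70.04% for summed error and 73.8% for deletion. Summed error at 54 was 2.64 to 3.71 points higher in KO, with limma adjusted p from 0.713 to 0.841. In TCT that difference ran from -1.49 to 6.85 points with 1 library left out at a time. Deletions at 55 were 1.42 to 2.97 points higher, with limma adjusted p from 0.303 to 0.504. For these deletions the libraries of the genotypes did not overlap in any of the 5 references, where 35.5% of all positions showed such a separation with KO higher. Tested directly, the change of ACG exceeded the mean change of its relatives by 7.74 points at 54 and 6.50 points at 55, and neither difference passed (limma adjusted p = 0.213 for both). No position of any Arg reference passed that limma test of differing change (0.00% of 380). An unadjusted p below 0.05 was found at 24 of the 380, and these were not read as differing changes.

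**Figure D4:**
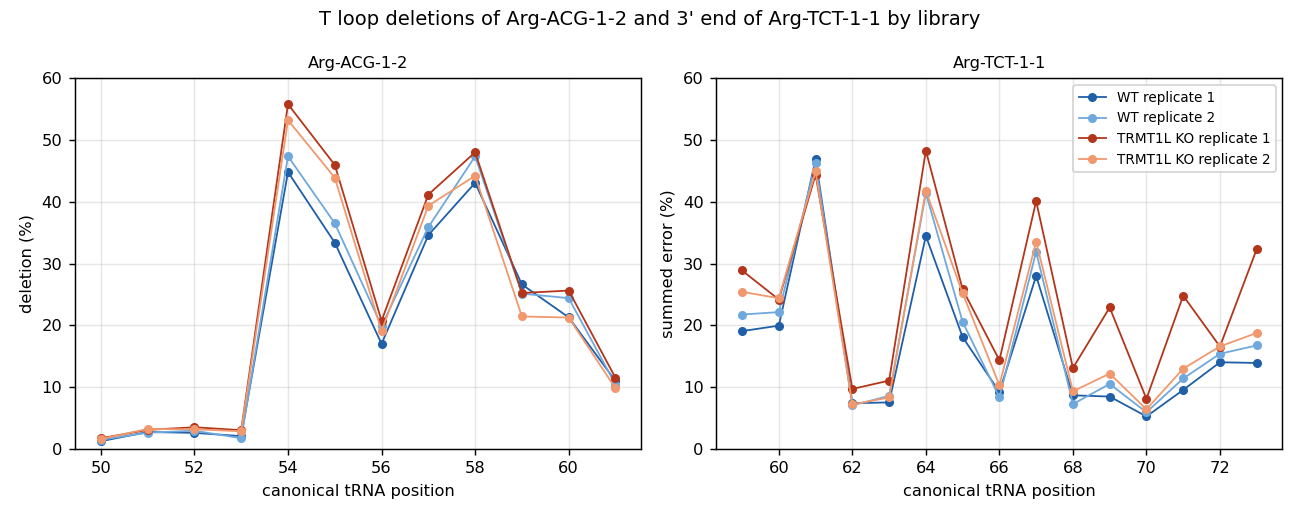
Deletion rate (%) of ACG at positions 50 to 61 (left) and summed error (%) of TCT at positions 59 to 73 (right), 1 line for each library. On the left both KO libraries lie above both WT libraries at 54, 55 and 57; on the right KO replicate 1 stands above the 3 other libraries at 69, 71 and 73.

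In TCT, 3 of the 4 largest mean differences lay at the 3' end, at positions 69, 71 and 73, and were much larger in KO replicate 1 than in replicate 2. At position 73 summed error was 13.9% and 16.7% in WT and 32.4% and 18.8% in KO. At 71 it was 9.54% and 11.4% in WT and 24.8% and 12.97% in KO, and at 69 it was 8.46% and 10.5% against 22.9% and 12.2%. In all 3, replicate 1 of KO was far above the other libraries, replicate 2 lay just above the higher WT library, and the summed error did not pass (limma adjusted p = 0.375, 0.421 and 0.373). Without KO replicate 2 the differences were 17.03, 14.3 and 13.4 points and passed (limma adjusted p = 9.66e-07, 2.18e-06 and 3.88e-06), and that lone library then stands for its genotype.

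Deletion at position 71 of TCT was the other call, with 3.21% and 3.14% in WT and 8.34% and 5.28% in KO. Its mean rose by 3.63 points (limma adjusted p = 0.0225), on a WT SD of 0.05. The call was lost without transformation, without the trend of variance on mean and with centred libraries (limma adjusted p = 0.0624, 0.146 and 0.0753), and without WT replicate 1, WT replicate 2 or KO replicate 1 (0.144, 0.0946 and 0.328 by limma), the difference being 2.10 points without the last.

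Position 37 of TCT, next to the anticodon, showed a difference held by both KO libraries. Its summed error was 47.1% and 49.6% in WT and 59.2% and 56.6% in KO, 9.48 points apart on average without passing (limma adjusted p = 0.176). With 1 library left out at a time, the difference ran from 8.18 to 10.8 points. Mismatch made up most of it, at 26.9% and 31.2% against 39.04% and 35.9% (limma adjusted p = 0.187). At position 36 of the same tRNA the difference had the opposite sign, 70.3% and 71.6% in WT against 62.8% and 65.7% in KO (limma adjusted p = 0.298). At position 37 the 4 other Arg references differed by between -2.26 and 2.48 points. Tested directly against the mean change of its relatives, TCT differed by 9.31 points at 37 and -8.37 points at 36. Neither difference passed (limma adjusted p = 0.213 for both).

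At positions 9, 20, 26, 32, 34, 37 and 58, no Arg reference passed in any kind of error by limma. At position 26 the differences in summed error ran from -1.23 points in ACG to 0.18 in CCG, with limma adjusted p from 0.898 to 0.989, and at 27 from -1.71 to 2.33 points. The widest gap within position 26 was in the kinds of error of TCG, where mismatch was 2.97 points lower and deletion 2.14 points higher, with limma adjusted p of at least 0.718 over all references. At position 20 all 5 means were lower in KO, by 0.58 to 3.28 points (lowest limma adjusted p 0.718). The largest of these, in CCT, came from 82.4% and 82.7% in WT against 74.3% and 84.2% in KO, and it changed sign without KO replicate 1.

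Position 9 was higher on average in all 5 references, by 1.00 point in CCT to 6.51 points in TCT. In TCT the values were 25.2% and 22.4% in WT and 31.1% and 29.4% in KO, and in TCG 20.5% and 18.3% against 26.2% and 23.6%. The libraries of the genotypes did not overlap in 4 of the 5, all but CCT (with KO higher, 30.9% of all positions did so), and none passed (limma adjusted p from 0.285 to 0.949). The differences at 34 lay between -1.53 and 1.31 points, at 32 between 0.42 and 1.60 and at 58 between -0.68 and 3.06, and none passed either.

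**Figure D5:**
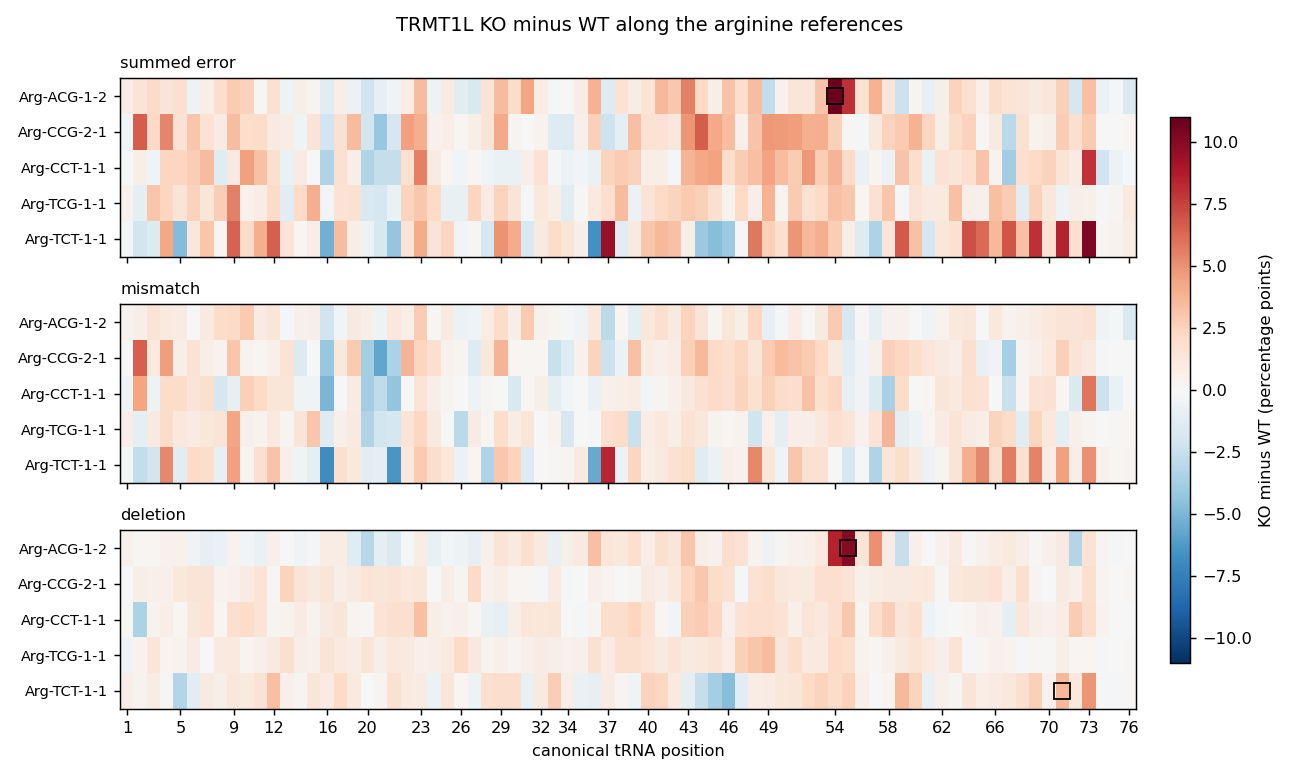
KO minus WT (percentage points, colour) along the canonical positions of the 5 Arg references for summed error, mismatch and deletion; open squares mark positions with a limma adjusted p below 0.05. Squares stand at position 54 of ACG (summed error), 55 of ACG and 71 of TCT (deletion), and most cells are pale red.

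Small differences upward were found at most positions of every reference. At D loop positions 16, 20, 20a and 21, summed error was instead lower on average in KO in all 5 references, without passing. The differences were -5.26 to -0.28 points at 16, -3.28 to -0.58 at 20, -4.14 to -0.88 at 20a and -4.22 to -0.38 at 21. The other references had medians of 0.45, -0.04, 0.29 and 0.64 points there. These positions were picked by their values. The libraries did not overlap, with KO higher, at 145 of 380 Arg positions (38.2%) for summed error, where that share was 30.9% over all 3621 positions, and with KO lower at 23 (6.05%), where it was 7.93%. The mean was higher in KO at 286 Arg positions (75.3%), beside 70.04% of all positions. The median difference was 1.40 points over Arg positions and 0.82 points over all. Deletions did not overlap at 171 Arg positions (45%) with KO higher, beside 35.5% of all, and at 14 (3.68%) with KO lower, beside 7.01%. Mismatches did not overlap at 130 (34.2%) with KO higher, beside 25.4%, and at 38 (10.0%) with KO lower, beside 10.9%. Insertions had nearly equal counts, 60 (15.8%) higher and 67 (17.6%) lower, beside 16.0% and 17.2%. The mean was higher in KO at 317 Arg positions (83.4%) for deletion, 275 (72.4%) for mismatch and 188 (49.5%) for insertion, beside 73.8%, 63.4% and 48.7%. By kind, the Arg median was 0.78 points for deletion, 0.71 for mismatch and -0.01 for insertion. Centring each library on its median over all positions took 1.27 points off every difference in summed error. That amount is the difference between the library medians of the genotypes. It was larger than the median difference over all positions, 0.82 points. With 2 libraries a genotype, a general difference between libraries and one between genotypes cannot be told apart.

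By region, the median difference over the 5 references was 2.23 points in the variable region, 1.98 in the T arm, 1.56 in the acceptor stem, 1.05 in the anticodon arm and 0.76 in the D arm, where the references of other amino acids had 0.66, 0.99, 0.90, 0.82 and 0.61. In the variable region, which has 5 numbered positions a reference, 4 references had medians between 1.77 and 3.39 points, while TCT had -4.01. That value came from positions 44, 45 and 46 of TCT, whose differences were -4.07, -4.66 and -4.01 points. At 45 the WT libraries read 69.4% and 69.2% and the KO libraries 63.2% and 66.1%. None of these passed (limma adjusted p from 0.523 to 0.714), and against the mean change of its relatives TCT differed by -8.00 points at 44 and -7.39 at 45 without passing (limma adjusted p = 0.213 for both).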

How the data were processed

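Each deposited value is a fraction of reads in error, per the labels and file headers, with a sheet for each library and kind of error. BWA, SAMtools and bedtools are named in the submitters' processing notes. The sources used here give no versions, base caller, read filters or handling of reads that fit several similar references. Read depth is unknown, so no counting interval is given. Rates were multiplied into percent, and the 3 kinds were added. limma 3.58.1 in R 4.3.3 was fitted to the arcsine square root of the rates over 3621 numbered positions, once for each kind. The functions were lmFit and eBayes with trend and robust. The fit was also run on simulated data whose noise was independent between positions. Those data held no shift common to a whole library, so they cannot show false calls from one. Nothing in the labels says that the libraries came from separate cultures, so p-values measure the spread between libraries, which may be technical.

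Positions described are 9, 20, 26, 32, 34, 37, 54 and 58, every Arg position that passed, the 5 highest in WT per reference, the 5 largest differences and arm medians. Positions 35, 44, 46 and 57, and 16, 20a, 27, 36 and 55 in references where they were not among the highest, were chosen after their values were seen. The members and lists were chosen with earlier results of these data known. Same-numbered libraries tended weakly to deviate from their group means in opposite directions (r = -0.25 over 3621 positions), so the numbers were not taken as pairs.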

Additional observations from a re-analysis of the deposited data

How the results depend on the processing

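For summed error, the count of Arg positions that passed (1) was 0 with each library centred on its median and 0 with the replicate block, and ran from 1 to 11 when 1 library was left out. For deletion (2) it was 1 without transformation, 1 on the log odds scale, 1 without the trend, 0 with centring and 5 with the replicate block, and ran from 0 to 12 without 1 library. For mismatch (0) it ran from 0 to 14, for the test of differing change between references (0) from 0 to 36, and for insertion it was 0 throughout. The highest of these counts all came without KO replicate 2, when replicate 1 alone stands for KO. A replicate block with the KO numbers exchanged, chosen after seeing the data, gave 7 for summed error, 3 for mismatch, 0 for deletion, 1 for insertion and 0 for differing change. The causes of these changes were not tested.

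None of the differences that changed sign had passed. With centring, differences became -0.43 points at 32 of ACG, -1.09 at 26 and -0.85 at 32 of CCG, -0.27 at 9 of CCT, -0.10 at 32 of TCG and -0.25 at 32 of TCT. Without insertions they became 0.43 at 34 of ACG and 0.51 at 26 of CCT. Leaving out 1 library, ACG ranged from -0.090 to 1.76 points at 32, -0.43 to 0.36 at 34 and -1.16 to 3.87 at 58, and CCG from -0.28 to 1.11 at 32. CCT ranged from -0.72 to 2.72 at 9, -8.23 to 1.67 at 20, -3.06 to 2.51 at 26, -3.31 to 2.04 at 34 and -2.86 to 1.50 at 58. TCT ranged from -2.54 to 1.38 at 20, -1.24 to 0.60 at 26, -0.27 to 2.89 at 34 and -1.49 to 6.85 at 54. Position 54 of ACG also lost its call with the replicate block (limma adjusted p = 0.107). Of 616 single-position values under alternatives, 568 kept sign and side of the threshold. Most of these were of positions that had not passed, so keeping their side says little about the calls. The 14 values that lost a call all belonged to the positions that passed, 54 and 55 of ACG and 71 of TCT. Unknown depth limits every value, and 2 libraries a genotype give the tests little power.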

Other observations

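The nucleotides beyond the tRNA end, which belong to the 3' adaptor and enter no comparison, had a mean summed error over the Arg references of 26.5% and 22.9% for WT replicates 1 and 2, and 22.6% and 24.6% for those of KO. The genotypes overlapped there, and the highest value was in WT replicate 1. CCT also had a wide spread between KO libraries: the median difference between them was 3.04 points over its 76 positions, beside 1.55 points between the WT libraries. At position 73 of CCT, summed error was 34.2% and 33.5% in WT and 46.4% and 37.1% in KO, so that, as in TCT, KO replicate 1 was the highest library (limma adjusted p = 0.448).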
